A study of Mus musculus with 6 samples.

Results

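The genes described here encode the contact and guidance signals of 3 systems: the ephrins and their Eph receptors, the semaphorins with their plexin and neuropilin receptors, and the Slits with their Robo receptors. They were chosen by symbol, as all mouse genes named as a member of 1 of these 7 families, and 60 of the 55414 genes in the deposited table met this rule. Of these, 31 encode ligands (8 ephrins, 20 semaphorins and 3 Slits) and 29 encode receptors (14 Eph receptors, 9 plexins, 2 neuropilins and 4 Robos). Messenger RNA was measured at E10.5 in tdTomato-positive cells sorted from the dissected trunk, in 3 libraries of genotype Pdx1-Cre+, Tdtomato+, miR-302WT (WT) and 3 of genotype Pdx1-Cre+, Tdtomato+, miR-302KO (KO). Both groups carried the Cre and the reporter, and the parents were heterozygous for *mir-302*, a cluster of microRNAs abundant in the early embryo, so the KO embryos lacked it in all tissues and not only in the labelled cells. *Pdx1-Cre* is a transgene that marks every cell that has expressed it and all descendants of that cell, which makes the sorted population wider than the pancreatic progenitors named in the labels. The question is how these ligands and receptors differed between the genotypes, and whether ligands and receptors differed alike.

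Ephrins and Eph receptors both sit in the cell membrane, signal in either direction where cells touch, and are known for sorting cells and holding tissue boundaries. Class 3 semaphorins and Slits are secreted. The former act through plexins with neuropilins as co-receptors, the latter through Robos, and both were first known for steering axons and are used again by epithelia and vessels. In the pancreas, EphB receptors have been linked to the shaping of the branching epithelium, Robo receptors to keeping progenitors in the pancreatic fate, and semaphorin 3A with neuropilin 2 to the movement of endocrine cells.

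The microRNAs removed in KO act by pairing their seed, bases 2 to 8, with sites in the 3′UTR of messenger RNAs. Their mature sequences are shown because the search for sites among these genes rests on them. RefSeq (GRCm38.p6) gives miR-302b-3p at chr3:127545275-127545297, miR-302d-3p at chr3:127545665-127545687 and miR-302c-3p at chr3:127545406-127545427, all on the plus strand, and the capitals mark bases 2 to 8.
miR-302b-3p: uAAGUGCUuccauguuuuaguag
miR-302d-3p: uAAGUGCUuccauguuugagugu
miR-302c-3p: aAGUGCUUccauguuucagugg
The first pair share the seed AAGUGCU, and the entry for miR-302c-3p starts a base later in the same motif. miR-302a-3p also belongs to the cluster. The sites below match the seed AAGUGCU in the longest annotated 3′UTR of 4 genes described later (GENCODE M21, GRCm38), shown with 8 bases on each side on the strand of the gene, and the capitals mark the site.
Epha5, chr5:84059000-84059006, minus strand: aacaactcAGCACTTtgtaaaca
Epha5, chr5:84055877-84055884, minus strand: atcagttgAGCACTTAtacatttg
Plxna1, chr6:89317257-89317263, minus strand: tgttcgcaAGCACTTtagcattt
Nrp2, chr1:62796350-62796356, plus strand: cgcccctaAGCACTTcacaaccc
Nrp2, chr1:62798144-62798150, plus strand: cgtcacggAGCACTTtttgttgt
Sema4c, chr1:36549094-36549100, minus strand: ggggtcatAGCACTTtgcttctc
The second *Epha5* site is an 8mer, AGCACTTA, which pairs with the whole seed and has an A opposite the first base of the microRNA, and the other sites shown are of the 7-base form AGCACTT. A site of either form, or the form GCACTTA, was found in 10 of the 60 genes (16.7%) and in 20.6% of the 13768 tested genes with an annotated 3′UTR. Receptors held most of them, 8 of 29 (27.6%) against 2 of 31 ligands (6.45%). The other receptors with a site were *Epha2*, *Epha7*, *Epha10* with 2 sites, *Ephb1* and *Plxnc1*, and the other ligand was *Sema5a*. A match of letters is a description and does not show binding.

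The libraries held 17352498 to 26634523 counts, and libraries of the same genotype differed by far more than counting noise (chi-square per degree of freedom 25.3 to 41.0). The labels do not say which embryos or litters each came from. They give WT replicate 2 and KO replicate 1 library names that differ only in the last letter, without saying what the names mark. The p-values therefore measure the spread between these libraries. Of the genes listed, 16353 passed the filter on low counts and were tested. The deleted cluster was too low to check the genotypes, since 2 counts of *Mir302d* in KO replicate 3 were all that was seen of *Mir302a*, *Mir302b*, *Mir302c* and *Mir302d*. *Pdx1* itself was at 73.1 to 107.5 CPM (counts scaled to library size by TMM) in every library. *Nkx6-1* and *Ptf1a*, which were also counted as markers of pancreatic progenitors, stayed at or under 4.96 CPM. All 13 such markers summed to 1964 to 2385 CPM in WT and 2035 to 2593 CPM in KO. Markers of other cells varied within each genotype. The 14 mesenchyme markers summed to 526, 212 and 1125 CPM in WT replicates 1, 2 and 3 and to 1110, 89.0 and 1086 CPM in KO replicates 1, 2 and 3, the endocrine markers to 1162, 5277 and 4001 in WT and 2860, 5772 and 2218 in KO, and hemoglobin *Hba-a1* reached 3549 CPM in the third WT library and 1580 CPM in the first KO library. In a bulk sample, fewer cells of a type and less RNA per cell cannot be told apart.

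The highest levels belonged to receptors. Expressed per length, as CPM per kb of annotated exon, so that genes can be compared, *Ephb4*, the receptor of ephrin B2, had the highest mean over the 6 libraries at 51.3 CPM per kb (43.9 to 67.3). *Plxnb2* and *Plxnb1*, plexins that bind class 4 semaphorins, followed at 41.9 (36.3 to 54.8) and 23.3 (15.9 to 31.4). The range of *Ephb4* overlapped that of *Plxnb2*, and that of *Plxnb1* lay below both. *Efna4*, a lipid-anchored ephrin, was the highest ligand at 21.2 (19.5 to 24.3), within the range of *Plxnb1*. *Sema3c*, a secreted class 3 semaphorin, stood at 19.6 (16.0 to 28.3), *Epha1* at 13.4 (11.5 to 16.7), *Sema4c*, a membrane-bound semaphorin, at 12.2 (10.7 to 15.9) and *Efnb1*, a transmembrane ephrin, at 11.3 (9.79 to 14.7). The last 3 overlapped in range, so their order was not larger than the spread between libraries.

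The neuropilins *Nrp1* and *Nrp2* were at 10.4 and 8.55 CPM per kb, and *Robo1*, the highest Robo, was at 7.27 (4.42 to 11.1). Their ligands in the Slit family were lower, with *Slit1* at 2.18 (0.732 to 3.36) and *Slit3* at 1.46 (0.924 to 2.03). *Robo2* had the same mean as *Slit1*, 2.18, but ran from 0.198 to 3.29. Of the 60 genes, 6 were too low to be tested, 5 receptors and 1 ligand. *Epha6* had 2 counts in KO replicate 1, 11 in KO replicate 3 and 0 elsewhere, and *Robo3*, a Robo of crossing axons, had 1 count in each of WT replicates 2 and 3. *Robo4*, an endothelial Robo, had 10 counts in WT replicate 2, 26 in KO replicate 1 and 0 elsewhere, where a count of 0 allows up to 3. *Plxnb3* had 5 to 6 counts in WT and 16, 0 and 12 in KO, and *Plxnc1* had 7 to 10 in WT and 17, 2 and 1 in KO. *Sema7a*, a lipid-anchored semaphorin, had 0, 5 and 1 in WT and 4, 13 and 2 in KO. The main fit did not test a difference between the genotypes at these counts. With no filter on low counts, only *Epha6* of the 6 reached an unadjusted edgeR p under 0.05, and it did not pass after adjustment.

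**Figure D1:**
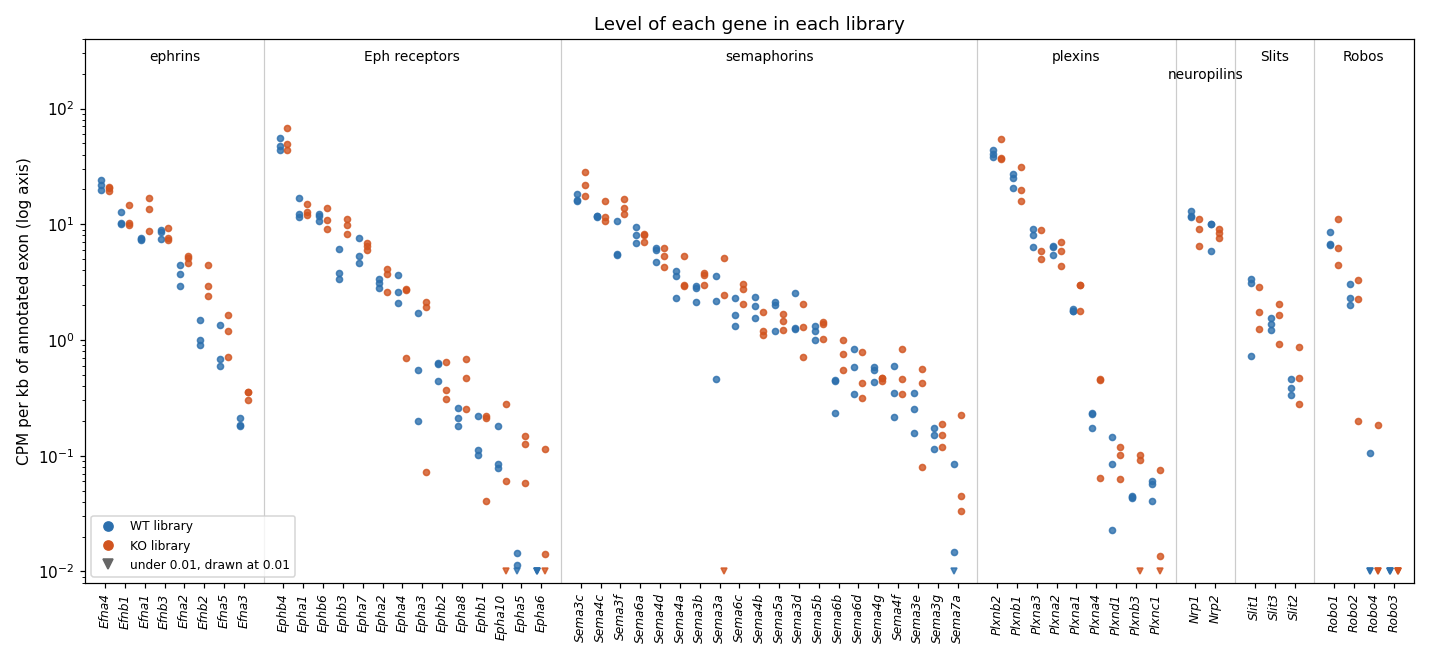
Level of each of the 60 genes (CPM per kb of annotated exon, log axis) in the 3 WT (blue) and 3 KO (orange) libraries, by family and ordered by mean, with values under 0.01 drawn as triangles at 0.01. *Ephb4*, *Plxnb2* and *Plxnb1* are highest, and single libraries of *Sema3a*, *Epha3* and *Robo2* lie far below the others of the same gene.

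In KO, 3 ligands and 1 receptor had higher transcript levels in all 3 libraries than in any WT library and passed DESeq2's test: ephrin B2 (*Efnb2*), ephrin A1 (*Efna1*), semaphorin 3F (*Sema3f*) and the receptor *Ephb3*. None of the 54 genes tested passed edgeR's quasi-likelihood test after Benjamini-Hochberg adjustment over all genes, and neither did any other gene (0% of 16353, smallest adjusted p 0.0846). DESeq2's Wald test called 4 of the 48 to which it gave an adjusted p (8.33%), beside 4.87% of all genes, and all 4 were higher in KO, a direction in which it called 4.22% of all genes, against 0.648% in the other. An unadjusted edgeR p under 0.05 was reached by 10 of 54 (18.5%), beside 10.4% of all genes. Of these, 9 were higher in KO (16.7%, beside 6.42% of all genes) and 1 was lower (1.85%, beside 3.97%). The WT levels of 1 of the 9, *Epha5*, would not by themselves have passed the filter on low counts. Without WT replicate 3 the count of 10 was 5, and without KO replicate 1 it was 6. Over all genes, the share with an unadjusted p under 0.05 was larger among genes with a GC-rich stretch, which were frequent in these families (given below).

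*Efnb2* (ENSMUSG00000001300.17, chromosome 8), a transmembrane ephrin of arterial endothelium and many epithelia, was at 6.88, 10.2 and 6.26 CPM in WT and at 30.4, 19.9 and 16.4 CPM in KO. The lowest KO library was above the highest WT library, and KO replicate 1 stood highest. The log2 fold change was 1.52 (standard error 0.29, edgeR adjusted p = 0.132, DESeq2 adjusted p = 3.48e-05), and it ran from 1.24 to 1.78 when single libraries were left out. Its preferred receptor *Ephb4* was at 259, 222 and 203 CPM in WT and 228, 205 and 312 CPM in KO, with overlapping groups and a log2 fold change of 0.12 (standard error 0.17). Since *Efnb2* and *Ephb4* are known from vessels, the endothelial markers stand beside them: their sum was 75.4 to 154 CPM in WT and 45.7 to 179.7 CPM in KO, and of the 14 markers *Cdh5*, *Erg*, *Emcn*, *Tie1* and *Cldn5* stayed at or under 1.68 CPM in every library. In KO replicate 1, where *Efnb2* was highest, *Cdh5* (0.71 CPM), *Tie1* (1.68), *Cldn5* (1.49), *Emcn* (1.01), *Tek* (9.73) and *Kdr* (11.3, against at most 1.23 elsewhere) were at their highest. *Ramp2* and *Erg* were also highest there. *Flt1* and *Esam* were highest in WT replicate 1, *Pecam1* and *Sox18* in WT replicate 2, and *Sox17* and *Egfl7* in KO replicate 3. KO replicate 2, with *Efnb2* at 19.9 CPM, had 0 counts of *Tek*, *Kdr*, *Tie1* and *Flt1* and *Ramp2* at 32.5 CPM. The part of endothelial cells in these values was not tested.

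*Ephb3* (ENSMUSG00000005958.16, chromosome 16), a receptor of B ephrins in gut and pancreatic epithelium, was at 22.2, 40.7 and 25.3 CPM in WT and at 73.5, 54.8 and 65.6 CPM in KO. The groups did not overlap, although WT replicate 2 was closer to KO than the other WT libraries. The log2 fold change was 1.14 (standard error 0.24, edgeR adjusted p = 0.14, DESeq2 adjusted p = 0.00012). Without WT replicate 2, *Ephb3* and *Sema3f* passed the edgeR test after adjustment, among 217 genes in all.

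*Sema3f* (ENSMUSG00000034684.13, chromosome 9), a secreted semaphorin that binds neuropilin 2, was at 28.7, 55.1 and 27.9 CPM in WT and at 85.2, 71.7 and 63.6 CPM in KO. As for *Ephb3*, WT replicate 2 was the highest WT library and still lay below every KO library. The log2 fold change was 0.98 (standard error 0.28, edgeR adjusted p = 0.222, DESeq2 adjusted p = 0.00464). *Efna1* (ENSMUSG00000027954.10, chromosome 3), a lipid-anchored ephrin that binds EphA2, was at 13.4, 13.6 and 13.9 CPM in WT and at 31.0, 16.0 and 24.7 CPM in KO. The WT libraries lay within 1 CPM of each other, and KO replicate 2 was the closest of the KO libraries to them. The log2 fold change was 0.81 (standard error 0.24, edgeR adjusted p = 0.245, DESeq2 adjusted p = 0.0273).

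Beside these 4 genes, the 9 markers of gut endoderm summed to 45.2 to 64.0 CPM in WT and 103.9 to 125.7 CPM in KO, without overlap. *Ihh* carried this difference, since the other 8 markers summed to 16.1, 25.6 and 17.0 CPM in WT and 22.0, 23.2 and 11.2 CPM in KO, which overlap. *Ihh*, *Shh* and *Sox2* rose by DESeq2's test, while *Isx* was at 9.38, 10.9 and 7.72 CPM in WT and 1.86, 8.26 and 2.61 CPM in KO, and *Cdx2* at 4.15, 11.2 and 5.05 against 5.67, 3.87 and 1.80. The part of gut cells in the values of *Efnb2*, *Ephb3*, *Sema3f* and *Efna1* was not tested. The mesenchyme and endocrine sums given above overlapped between the genotypes.

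Of the remaining genes with an unadjusted p under 0.05, *Epha5* differed most on the log scale and was among the lowest. This receptor of A ephrins had 4, 1 and 5 counts in WT and 66, 37 and 18 counts in KO, or 0.19, 0.06 and 0.24 CPM against 2.46, 2.11 and 0.98 CPM. The KO libraries all exceeded the WT libraries. Its log2 fold change of 3.44 (standard error 0.61, edgeR adjusted p = 0.132) rests on those few WT counts, and DESeq2 gave it no adjusted p. It passed the filter on low counts only through its KO libraries. *Epha5* is also the gene with both a 7-base and an 8-base site shown above, at bases 36 to 42 and 3158 to 3165 of a 3′UTR of 4281 bases.

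*Sema6b*, a transmembrane semaphorin that binds A plexins, was at 1.74, 1.79 and 0.92 CPM in WT and 3.02, 3.93 and 2.18 CPM in KO, without overlap (log2 fold change 1.03, standard error 0.38, edgeR adjusted p = 0.378). *Epha8* was at 0.85, 1.01 and 1.21 CPM in WT and 3.21, 2.22 and 1.20 CPM in KO (log2 fold change 1.11, standard error 0.43, edgeR adjusted p = 0.411). KO replicate 3 fell inside the WT range for *Epha8*, and with GC offsets, which take out each library's trend on transcript GC content, neither *Sema6b* nor *Epha8* kept its unadjusted p under 0.05. *Sema3c* was at 114, 129.5 and 116.5 CPM in WT and 154.7, 124 and 202 CPM in KO (log2 fold change 0.42, standard error 0.17, edgeR adjusted p = 0.448). *Plxna1*, a plexin that pairs with neuropilins, was at 16.1, 16.9 and 16.0 CPM in WT and 27.1, 27.0 and 16.2 CPM in KO (log2 fold change 0.53, standard error 0.21, edgeR adjusted p = 0.452). For *Sema3c* KO replicate 2, and for *Plxna1* KO replicate 3, lay among the WT libraries.

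*Nrp1*, the co-receptor of semaphorin 3A and of VEGF, was the gene lower in KO, at 127, 112 and 115 CPM in WT and 88.5, 63.0 and 108 CPM in KO. The groups did not overlap, but KO replicate 3 was within 5 CPM of the lowest WT library. The log2 fold change was -0.45 (standard error 0.18, edgeR adjusted p = 0.452, DESeq2 adjusted p = 0.296). *Nrp2*, the other neuropilin and the receptor of semaphorin 3F, was at 69.8, 119.9 and 120.2 CPM in WT and 98.5, 90.9 and 108.5 CPM in KO, with overlap (log2 fold change -0.06, standard error 0.20).

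**Figure D2:**
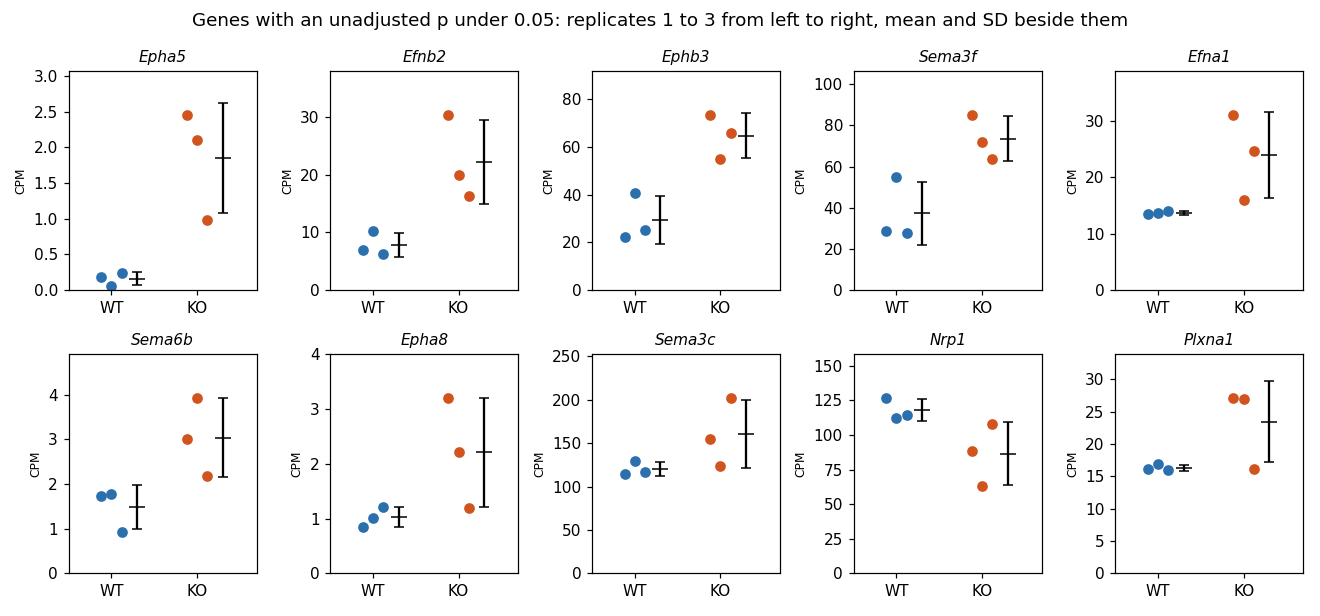
CPM of the 10 genes with an unadjusted edgeR p under 0.05, in the 3 WT (blue) and 3 KO (orange) libraries, with the mean and SD of each genotype beside its points. *Efnb2*, *Ephb3*, *Sema3f*, *Efna1*, *Epha5* and *Sema6b* are higher in every KO library, *Nrp1* is lower in every KO library, and *Epha8*, *Sema3c* and *Plxna1* overlap.

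The genotypes separated in a larger share of the ligands than of the receptors, a difference that was not tested. All KO libraries exceeded all WT libraries for 7 of 30 ligands (23.3%) and 2 of 24 receptors (8.33%), beside 8.36% of all genes. These were *Efna1*, *Efna2*, *Efna3*, *Efnb2*, *Sema3b*, *Sema3f* and *Sema6b* among ligands and *Epha5* and *Ephb3* among receptors. *Efna3* and *Epha5* passed the filter on low counts only because of their KO levels. At their WT levels they could enter this count only by being higher in KO. No ligand and 1 receptor, *Nrp1*, was lower in every KO library (1.85% of the 54 genes, beside 7.99% of all genes). The median log2 fold change was 0.17 over the tested ligands, of which 20 of 30 were above 0, and 0.05 over the tested receptors, of which 13 of 24 were above 0, against -0.02 over all tested genes. An unadjusted p under 0.05 was reached by 5 of 30 ligands (16.7%) and 5 of 24 receptors (20.8%). The receptor median changed sign with the library left out, from -0.09 without KO replicate 3 to 0.21 without KO replicate 2, while the ligand median ran from 0.10 to 0.28.

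Summed per length, the ligands stood at 119.9, 130.7 and 130.2 CPM per kb in WT and 150.8, 134.6 and 164.3 in KO, or 127 ± 6.13 against 149.9 ± 14.9 (SD, n = 3 each), and the groups did not overlap. The receptors summed to 204 ± 2.18 in WT and 209.7 ± 46.3 in KO, a spread within KO, from 173 to 262, far wider than the difference. The ratio of the ligand to the receptor sum was 0.594 to 0.637 in WT and 0.776, 0.778 and 0.628 in KO, so KO replicate 3 lay within WT. For semaphorins over plexins the ratio was 0.830 to 0.850 in WT and 1.15, 1.10 and 0.899 in KO, without overlap, but without *Sema3c* it was 0.622 to 0.640 in WT and 0.847, 0.837 and 0.629 in KO, which overlap. The ligand sum without *Sema3c* was 103.9 to 113.9 in WT and 117.2 to 136 in KO. With *Sema3f* left out as well, the ligand sums of the genotypes overlapped. For ephrins over Eph receptors the genotypes overlapped (0.544 to 0.629 against 0.548 to 0.671).

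Among the ligand families, ephrins had the highest median log2 fold change, 0.44 over 8 genes with 6 above 0, which was 0.27 with the GC offsets. Class A ephrins other than *Efna4* were above 0, although *Efna2* went from 0.44 to -0.07 with those offsets: *Efna3* was at 0.52, 0.45 and 0.44 CPM in WT and 0.86, 0.74 and 0.87 CPM in KO, and *Efna2* at 7.92, 9.55 and 6.26 against 11.0, 11.4 and 9.85. Neither reached an unadjusted p under 0.05 (edgeR adjusted p = 0.541 and 0.528). *Efna1*, *Efna3* and *Efna4* lie next to each other on chromosome 3 with no coding gene between them in the RefSeq order. Their log2 fold changes were 0.81, 0.81 and -0.11, so the gene at 1 end did not share the direction. *Efna4* was at 38.9, 35.0 and 31.5 CPM in WT and 31.2, 33.2 and 33.5 CPM in KO, and *Efnb1* at 34.9, 35.1 and 43.8 against 35.1, 33.8 and 50.8.

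Semaphorins had a median of 0.12 over 19 tested genes. The 7 class 3 semaphorins, the secreted ones, had a median of 0.40 with 6 above 0, while the 6 tested class 4 semaphorins had a median of 0.01 with 3 above 0. The summed level of class 3 was 30.7 ± 2.37 CPM per kb in WT and 44.4 ± 8.05 in KO (SD, n = 3 each), without overlap (28.2 to 32.9 against 35.9 to 51.9), and *Sema3c* and *Sema3f* made up most of it. Without *Sema3c*, whose log2 fold change was -0.01 with GC offsets, class 3 summed to 12.2 to 14.8 in WT and 18.5 to 23.9 in KO, still without overlap. *Sema3f* alone was at 5.51, 10.6 and 5.37 CPM per kb in WT and 16.4, 13.8 and 12.2 in KO. With *Sema3f* left out as well, the summed levels of class 3 overlapped between the genotypes. *Sema3b* was at 13.9, 10.1 and 13.3 CPM in WT and 14.2, 17.9 and 17.3 in KO (log2 fold change 0.40, edgeR adjusted p = 0.517). *Sema4c*, the highest of class 4, was at 53.0, 54.2 and 54.4 CPM in WT and 53.1, 49.0 and 73.0 CPM in KO (log2 fold change 0.12, standard error 0.16). *Sema4b* had the lowest value among ligands, -0.53 (standard error 0.25, edgeR adjusted p = 0.539), with overlapping groups.

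For the abundant plexins, *Epha1* and *Robo1*, the genotypes overlapped. *Plxnb2* was at 295, 312 and 341 CPM in WT and 289, 280 and 423 CPM in KO (log2 fold change 0.07, standard error 0.17). *Plxnb1* was at 196, 262 and 238 CPM in WT and 189.6, 153 and 301 CPM in KO (-0.11, standard error 0.24). *Epha1* was at 65.6, 48.3 and 45.1 CPM in WT and 50.2, 47.3 and 59.3 CPM in KO (-0.02, standard error 0.17). In all of these the KO range reached across the WT mean. *Robo1* was at 111, 108 and 142 CPM in WT and 103, 72.9 and 183 CPM in KO (-0.01, standard error 0.31). *Slit3* was at 9.47, 8.27 and 7.43 CPM in WT and 10.1, 12.3 and 5.6 CPM in KO (0.15, standard error 0.30), again with overlap. The medians were 0.12 over 13 Eph receptors, 0.07 over 7 plexins and 0.15 over the 3 Slits, and the Slit median was -0.26 with GC offsets, where *Slit3* went to -0.39. The directions of the Robos and of *Nrp2* changed with the libraries used: without KO replicate 2, *Robo1*, *Robo2* and *Nrp2* were at 0.26, 0.20 and 0.02, against -0.01, -0.34 and -0.06 with it. *Robo1* was also at 0.01 with DESeq2's size factors.

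**Figure D3:**
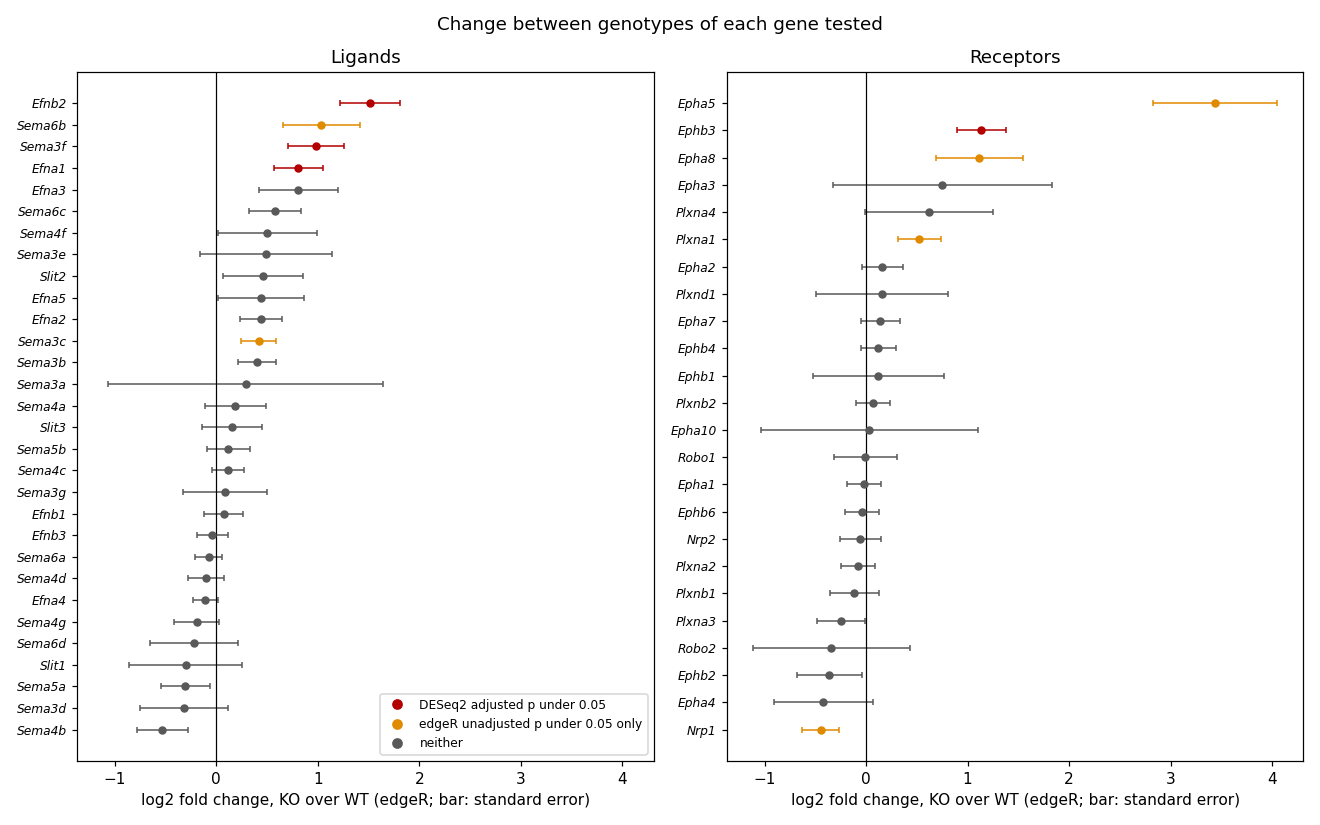
edgeR log2 fold change of KO over WT with its standard error (bars) for the 30 ligands and 24 receptors tested, coloured by whether DESeq2's adjusted p (red) or only edgeR's unadjusted p (orange) was under 0.05. *Efnb2*, *Sema3f*, *Efna1* and *Ephb3* are red, the ligands lean to positive values (20 of 30), and *Sema3a*, *Epha3* and *Epha10* have standard errors over 1.

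Several guidance genes varied widely between libraries of the same genotype, some in both genotypes and *Robo2* and *Epha4* mainly through KO replicate 2, and the ones given here were chosen after their values were seen. The within-genotype SD of log2(CPM + 0.5) was 2.93 for *Sema3a*, 1.91 for *Epha3* and 1.5 for *Robo2*, against a median of 0.366 over the 60 genes. *Sema3a*, the neuropilin 1 ligand, was at 29.9, 6.42 and 49.3 CPM in WT and at 34.0, 0 and 70.7 CPM in KO, where the 0 of KO replicate 2 allows up to 0.171 CPM. *Epha3* was at 4.76, 1.73 and 14.8 CPM in WT and 16.7, 0.63 and 18.6 CPM in KO. Both were lowest in KO replicate 2 and next lowest in WT replicate 2, the order of the mesenchyme marker sums. Of these markers, *Col1a1*, *Col3a1*, *Prrx1*, *Tbx18*, *Twist1*, *Twist2*, *Barx1* and *Nkx3-2* had 0 counts in KO replicate 2. *Pdgfra*, *Foxf1* and *Tcf21* were at 0.91, 0.40 and 0.57 CPM there. *Col1a2* (34.9 CPM), *Pdgfrb* (11.3 CPM) and *Osr1* (41.0 CPM) were still seen in that library, *Osr1* above every WT library. *Robo2* was at 33.8, 51.3 and 39.1 CPM in WT and 38.7, 3.36 and 55.9 CPM in KO, and *Epha4* at 17.0, 29.3 and 20.8 against 22.0, 5.64 and 22.4. These 2 receptors were low only in KO replicate 2 and were at their highest or next highest in WT replicate 2, so they did not follow the mesenchyme sum across all libraries. The part of mesenchymal cells in these values was not tested.

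*Slit1* varied with other libraries, at 4.34, 18.5 and 19.9 CPM in WT and 10.4, 16.9 and 7.40 CPM in KO. It was highest in WT replicates 2 and 3 and KO replicate 2, the libraries with the highest endocrine sums, and lowest in WT replicate 1, where that sum was lowest. *Sema4a* was at 12.5, 19.5 and 21.2 CPM in WT and 16.2, 28.7 and 15.8 in KO, and *Sema6d* at 3.63, 6.15 and 8.89 against 3.32, 8.26 and 4.52. Both had their 3 highest values in the same 3 libraries. The sum of the neural and neural crest markers was highest there too, at 220 and 178 CPM in WT replicates 2 and 3 and 254 CPM in KO replicate 2. It was 90.8 CPM in WT replicate 1 and 136 and 114 CPM in KO replicates 1 and 3. *Nefm*, *Pax6*, *Tubb3* and *Nefl* made up most of this sum. *Sox1* and *Olig2* had 0 counts in every library, and *Sox10* stayed at or under 0.534 CPM. *Elavl3* was highest in WT replicate 1 and *Isl2* in KO replicate 3. The part of endocrine or neural cells in these values was not tested. With WT replicate 2 and KO replicate 2 left out together, an alternative added after the data were seen, 10 genes of the families had an unadjusted p under 0.05, of which 6 were among the 10 given above and 4 were others (*Ephb2*, *Plxna4*, *Sema5a* and *Sema6c*). *Epha8*, *Nrp1*, *Plxna1* and *Sema6b* no longer passed, and the medians were 0.23 for ligands and 0.19 for receptors.

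**Figure D4:**
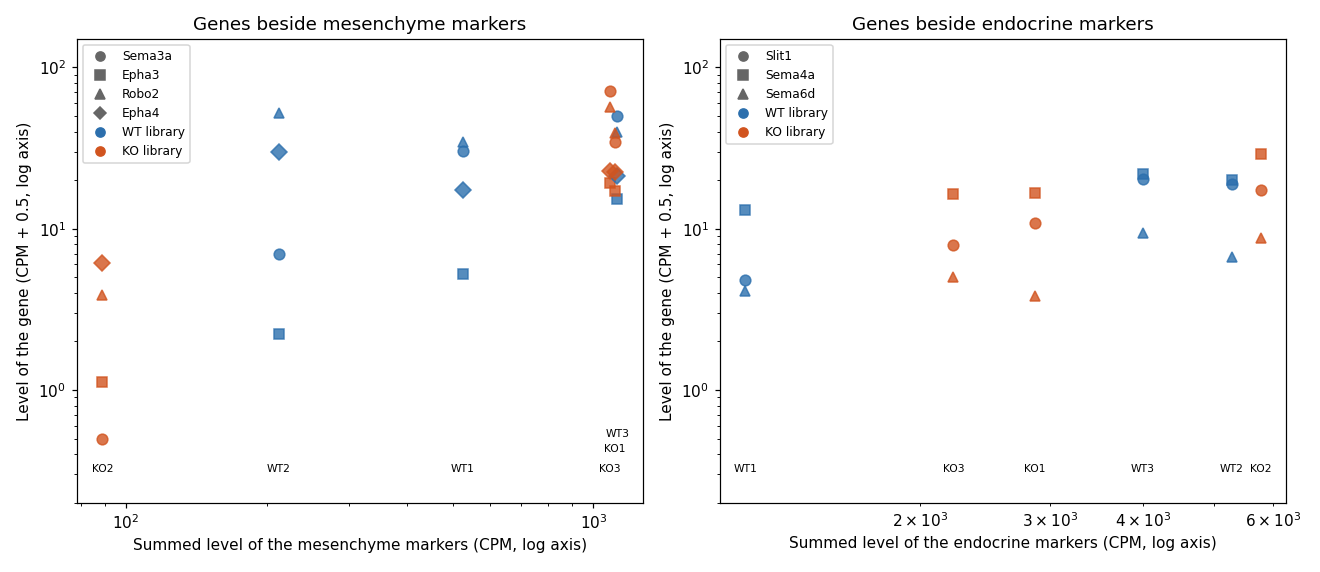
CPM + 0.5 of 7 genes (log axis) in each library against the summed CPM of the mesenchyme markers (left) or endocrine markers (right, log axes), with WT libraries in blue and KO libraries in orange. *Sema3a* and *Epha3* are lowest in KO replicate 2 and WT replicate 2, where the mesenchyme sum is 89.0 and 212, and *Slit1*, *Sema4a* and *Sema6d* are highest in the 3 libraries whose endocrine sum is 4001 or more.

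GC-rich stretches, defined as 200 bases in a row holding 75% GC or more, were frequent in these genes. The longest coding transcript held such a stretch in 25 of the 60 genes (41.7%), 15 of 31 ligands and 10 of 29 receptors, beside 22.9% of 13845 tested genes. The median log2 fold change was 0.15 over tested members with a stretch and 0.07 over those without, and over all tested genes it was 0.14 with and -0.04 without. An unadjusted edgeR p under 0.05 was reached by 5 of 23 tested members with a stretch and 5 of 31 without. Over all tested genes it was reached by 817 of 3175 with a stretch and 735 of 10670 without. When a per-library trend on GC was added to the fit as offsets, the log2 fold change of *Sema3c*, whose richest stretch held 81.5% GC, went from 0.42 to -0.01, and that of *Plxna1* (83%) from 0.53 to -0.01. *Sema6b* (78.5%) went from 1.03 to 0.75 and *Epha8* (78%) from 1.11 to 0.85, and these 4 lost their unadjusted p under 0.05, while *Ephb2* (83.5%) went from -0.36 to -0.91 and gained one. *Efnb2* (83%) went from 1.52 to 1.00 and kept it, as did 5 others of the 10 genes. *Ephb3* (72.5%), *Sema3f* (69%), *Efna1* (65%) and *Epha5* (69%) had values of 1.17, 1.04, 0.86 and 3.50 with the offsets, and *Nrp1* (63.5%) had -0.40. The medians of ligands and receptors were then 0.12 and -0.02, beside -0.01 over all tested genes.

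**Figure D5:**
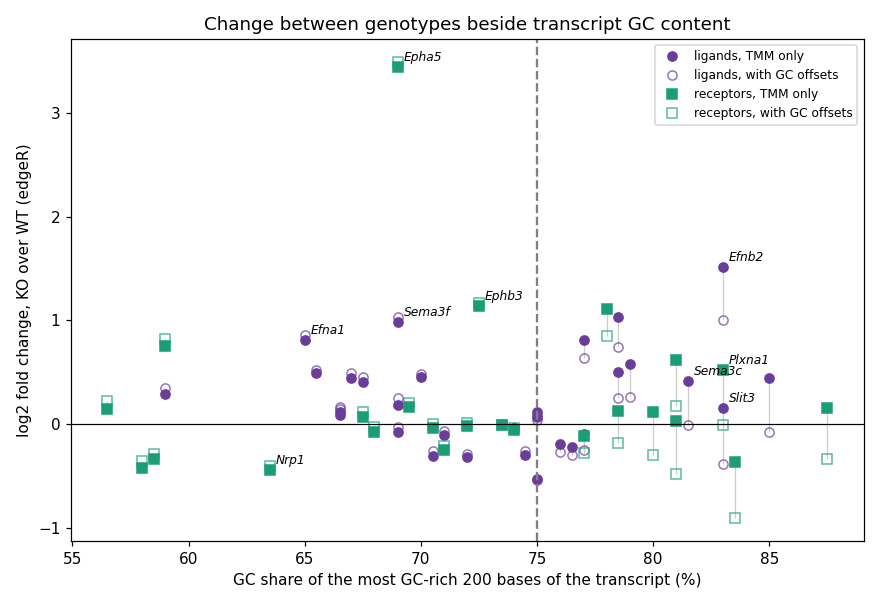
log2 fold change of KO over WT against the GC share of the most GC-rich 200 bases (%) for the 54 genes tested, without (filled) and with (open) GC offsets, joined by lines, ligands as circles and receptors as squares, and the dashed line at 75%. The offsets lower the genes right of the line, bring *Sema3c* and *Plxna1* to -0.01 and leave *Epha5*, *Ephb3*, *Sema3f* and *Efna1* close to their values.

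Genes with a miR-302 site had the same median as those without. The median log2 fold change was 0.12 over the 9 tested genes with a site and 0.12 over the 45 without, and over all tested genes it was -0.03 with a site and -0.01 without. Of the 9, *Epha5* and *Plxna1* had an unadjusted p under 0.05 (22.2%, beside 17.8% of the 45 without a site and 13% of the 2834 tested genes with a site), and 7 were above 0 (77.8%, beside 57.8% and 44.8%). *Nrp2*, with 2 sites, and *Sema5a* were below 0, and *Epha2*, with an 8mer, was at 13.2, 14.6 and 15.6 CPM in WT and 12.2, 17.3 and 19.2 CPM in KO (log2 fold change 0.16, standard error 0.20). With GC offsets the medians of the families with and without a site were -0.005 and -0.0007. *Plxna1*, *Epha10* and *Ephb1* then also fell below 0 (-0.01, -0.48 and -0.30), and *Plxna1* lost its unadjusted p under 0.05.

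Pathway genes that act downstream or alongside were counted on lists written by hand, beside the shares over all tested genes of 6.42% higher and 3.97% lower at an unadjusted edgeR p under 0.05, and of 4.22% higher and 0.648% lower by DESeq2. Of 23 tested transducers of Eph-ephrin signals, 5 were higher (21.7%) and 1 lower in KO, and DESeq2 called 2, *Rasa1* and *Fyn*, both higher (8.7%). *Rasa1*, a Ras GTPase-activating protein recruited by EphB receptors, was at 15.3, 27.7 and 13.9 CPM in WT and 61.6, 39.2 and 45.1 CPM in KO (log2 fold change 1.36, standard error 0.30, edgeR adjusted p = 0.147). *Inppl1*, a lipid phosphatase that binds EphA2, was lower (-0.34, standard error 0.14), at 35.7 to 44.9 CPM in WT and 28.2 to 35.6 CPM in KO. Of 31 semaphorin-plexin transducers, 4 were higher (12.9%) and 2 lower (6.45%), and DESeq2 called *Rap1b* and *Rras2* higher (6.67%) and *Nrcam* lower.

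*Rap1b*, a small GTPase on which plexins act, was at 74.7, 121.7 and 86.0 CPM in WT and 174.7, 178.9 and 156.8 CPM in KO (log2 fold change 0.85, standard error 0.17). *Nrcam*, an adhesion molecule of semaphorin receptor complexes, was at 16.4, 16.3 and 24.9 CPM in WT and 7.64, 14.1 and 8.22 CPM in KO (-0.95, standard error 0.29, DESeq2 adjusted p = 0.0387). Both separated the genotypes in all libraries. Of 26 Slit-Robo transducers, 5 were higher (19.2%) and 2 lower (7.69%), and DESeq2 called *Sdc3*, *Gpc1* and *Rac1*, all higher (11.5%). *Sdc3*, a heparan sulfate proteoglycan, was at 8.53, 15.3 and 9.22 CPM in WT and 41.4, 30.7 and 27.4 CPM in KO (1.59, standard error 0.27), and *Srgap2*, a Robo-binding GTPase-activating protein, had the smallest p among those lower (-0.47, standard error 0.16). Of 12 tested netrin ligands and receptors, 3 were higher (25%) and 0 lower, and DESeq2 called *Neo1* and *Rgmb*, both higher (20%). With lists this short, each share moves by several points with a single gene. *Rgmb*, a ligand of neogenin, was at 7.82, 12.8 and 7.23 CPM in WT and 25.3, 25.1 and 18.8 CPM in KO (1.31, standard error 0.26), and *Unc5b*, the netrin receptor with the smallest p among lower genes, missed the threshold (-0.56, standard error 0.42). edgeR's adjusted p was above 0.05 for every gene of the 4 lists, and the median log2 fold changes of the lists were -0.005, 0.01, -0.11 and 0.61 in the order given.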

How the data were processed

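Sorted cells went into Trizol LS, and libraries were made by SMART-seq v4 and Nextera XT. The authors aligned the reads with STAR (GRCm39) and used GenomicAlignments to count them on genes, and these raw counts were deposited as whole numbers, unnormalized. Gene annotation, strand handling and tool versions are not given in the sources used here, so reads of overlapping genes cannot be separated. Totals were 17352498 to 26634523 counts, and a count of 0 allows up to 3 (counting error only).

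The test was edgeR's quasi-likelihood test (version 4.0.16, R 4.3.3) with genotype as its term, after filterByExpr and TMM scaling. DESeq2 1.42.0, the tool named in the study's methods, was the alternative. Adjustment was Benjamini-Hochberg over all tested genes, at 0.05. Standard errors came from the fold change and its F statistic. Of the gene identifiers, 94.0% matched a symbol in a table of Ensembl names. Exon lengths, transcripts and 3′UTRs were from GENCODE M21 (GRCm38), and GC offsets were a loess of each library's deviation on the GC share of the richest 200 bases (span 0.3).

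The members, gene lists, tests and alternatives were chosen with earlier results of these data known. Genes were named if they had an unadjusted edgeR p or an adjusted DESeq2 p under 0.05, were among the 2 highest per length in their family, or failed the filter, and, in each pathway list, had the smallest p in each direction. Any other gene was named after its values were known. Both fits were checked on simulated counts. Small RNA data of the study were not used here.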

Additional observations from a re-analysis of the deposited data

How the results depend on the processing

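The number of genes past an adjusted p of 0.05 depended on the test and on 1 library: edgeR gave 0, DESeq2 699, edgeR with no filter on low counts 264, and edgeR with single libraries left out 0 to 217, the highest without WT replicate 2. Among the guidance genes the counts were 0 with edgeR, 4 with DESeq2, 3 with no filter (*Efnb2*, *Epha5* and *Ephb3*) and 0 to 2 with single libraries left out. The count with an unadjusted p under 0.05 was 10, ran from 5 to 12 with single libraries left out, and was 3 without WT replicate 3 and KO replicate 1 together, the libraries richest in hemoglobin, where the ligand median was 0.31 instead of 0.17. Leaving libraries out also leaves fewer samples to estimate the spread. The ligand median ran from 0.10 to 0.28 and the receptor median from -0.09 to 0.21 with single libraries left out. The other alternatives were DESeq2 size factors, a minimum of 1 CPM in 3 libraries and edgeR's newer estimate of the spread. GC offsets and the first digit of the library name as a term were also used. Under all of these the counts stayed within 1.5 times and the medians within 1 SD between libraries.

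Deviations of same-numbered libraries correlated at -0.21, 0.25 and 0.08, within the range of differently numbered ones (-0.31 to 0.34). These values cannot settle whether the libraries were paired. A fit with the replicate number as a block gave 8 guidance genes with an unadjusted p under 0.05, 0 after adjustment, and medians of 0.10 and -0.01. Over the 22 named genes and all alternatives, 311 of 351 log2 fold changes kept their direction, and for the 10 named by their p-value 157 of 159 did, the exceptions being *Sema3c* and *Plxna1* with GC offsets. Counts limit the genes near or under 1 CPM, such as *Epha5*, *Efna3* and the 6 genes not tested.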
